A study of Bos taurus with 6 samples.

Results

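The genes described here are 9 members of the epidermal growth factor (EGF) system: the ligands AREG, BTC, HBEGF, EGF and NRG1, the receptors EGFR and ERBB3, and the membrane proteases ADAM17 and ADAM10. They were taken by gene symbol from the annotation of the array, which named 15229 genes, and were carried by 15 probes. All 9 genes had at least 1 probe bright enough to be tested, as had 13129 named genes in all, and 13 of their 15 probes were tested.

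RNA came from bovine cumulus cells, the somatic cells that enclose the oocyte, of Holstein cumulus-oocyte complexes (COCs) collected at slaughter. One group was matured in culture with 0.5 µg/mL of recombinant follicle-stimulating hormone (rFSH) and the control group without it. Both groups had medium with fetal calf serum and 1 µg/mL estradiol, so the control was not free of hormone. There were 3 biological replicates, numbered 2, 3 and 4, each hybridised on a pair of two-colour arrays with exchanged dyes, 6 arrays in all. The complexes were cultured in groups, and the sources used here do not give how many animals or complexes made up a replicate, nor the age of the cows. The control is labelled 6 h, whereas the protocol describes a culture of 22 to 24 h for control and treated complexes alike; if the times differed, time and rFSH cannot be told apart in any ratio below.

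Ligands of this family are made as membrane-anchored precursors, and proteases of the ADAM family cut them to release the active growth factor. In cultured mouse cells ADAM17 is the main sheddase of AREG and HBEGF, and ADAM10 that of EGF and BTC. Released AREG, BTC, HBEGF and EGF bind EGFR, whereas NRG1 binds ERBB3 and ERBB4; BTC and HBEGF also bind ERBB4. In mouse ovarian follicles, EGF-like ligands relay the ovulatory signal of luteinizing hormone to the cumulus, where EGFR signalling through ERK drives expansion of the hyaluronan matrix and resumption of meiosis. In vitro, FSH can start the same programme in cumulus cells.

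With rFSH, transcripts of AREG rose 8.41-fold and those of BTC fell, with levels 1.78-fold higher in the control, while the other 7 genes did not pass the test. AREG and BTC thus moved in opposite directions. For each replicate the log2 ratio of rFSH to control was averaged over both dye orientations, and the 3 values were tested against 0 with limma and Benjamini-Hochberg adjustment over 34820 tested probes. At an adjusted p under 0.05, 1 of 9 genes was called higher, against 3.88% of named genes, and 1 of 9 lower, against 4.85%. In either direction the background was 8.73% of 13129 named genes, each judged by its brightest tested probe. At the level of probes, 2 of 13 tested probes were called, against 6.34% of all tested probes. The median log2 ratio of the 9 genes was 0.12, against 0.01 over all named genes. RNA was measured in bulk, so fewer cells that carry a transcript and less of it per cell cannot be told apart.

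The normalised levels of 4 of the 9 genes did not overlap between the groups, with AREG, ERBB3 and ADAM17 above and BTC below the control in rFSH-treated cells. Among all tested named genes, 28.0% had levels that did not overlap in either direction.

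**Figure D1:**
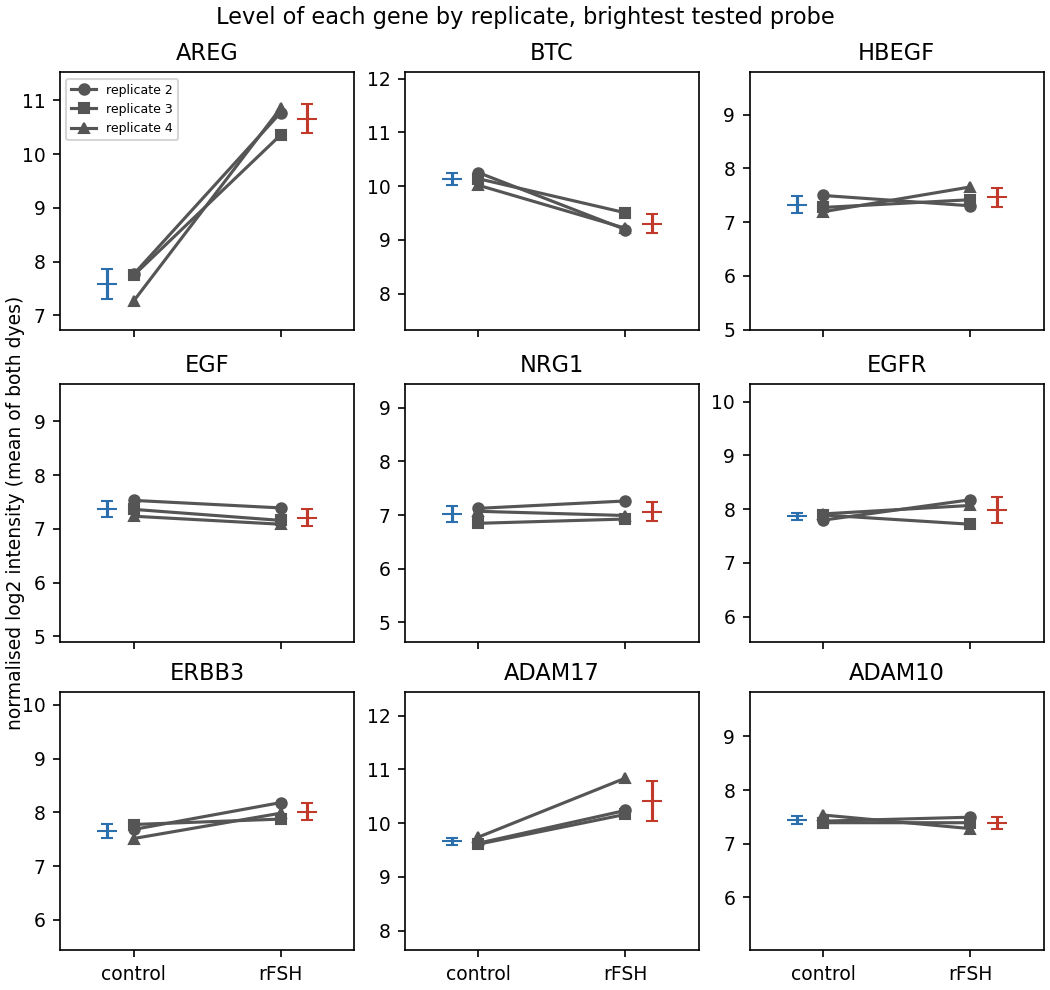
Normalised log2 intensity (vertical axis) of the brightest tested probe of each gene in control and rFSH-treated cumulus cells, with a line for each of the 3 replicates and bars for the mean ± SD. AREG lies near 7.59 in control and 10.66 in rFSH, BTC near 10.14 and 9.30, and the lines of EGFR, HBEGF and ADAM10 cross or run level; axes span equal log2 widths but differ in position, and levels of different probes are not comparable.

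AREG, amphiregulin, was the member with the largest ratio. Its log2 intensity with rFSH was 10.77 in replicate 2, 10.36 in replicate 3 and 10.85 in replicate 4, a mean of 10.66 ± 0.27 (SD, n = 3). In control cells it was 7.76, 7.74 and 7.26 in the same order, a mean of 7.59 ± 0.28 (SD, n = 3). Every rFSH level lay above every control level, and replicate 4 had both the lowest control and the highest rFSH level.

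The log2 ratios of AREG were therefore 3.01, 2.61 and 3.59, with a mean of 3.07 ± 0.49 (SD, n = 3) and a 95% interval from 2.51 to 3.64 (limma, adjusted p = 0.0197). All 6 arrays had a higher AREG signal in the rFSH channel, with log2 ratios from 2.60 to 3.81. Of the named genes tested, 12 had a larger log2 ratio than AREG. The probe, EMBV3_31722, exceeded the negative control spots on all 6 arrays in both channels, but only narrowly in control cells. Its raw control signal was 1.05 to 1.84 times the negative control threshold (their mean plus 2 SD on that channel) and its raw rFSH signal 5.70 to 12.4 times. The size of the AREG ratio depended on the background step. Its log2 ratio was 2.70 without background correction and 3.48 with an offset of 0 in that correction. The call of AREG was lost without replicate 2 (adjusted p = 0.140) and without replicate 3 (adjusted p = 0.0746), with log2 ratios of 3.10 and 3.30; without replicate 4 it was kept (log2 ratio 2.81, adjusted p = 0.0171). In the former settings, limma called 0 probes of the whole array, with 6874 and 7399 at an unadjusted p under 0.05.

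BTC, betacellulin, was carried by 3 probes, and the brightest, EMBV3_17855, fell by 0.83 on the log2 scale. Its log2 intensity with rFSH was 9.19, 9.50 and 9.22 in replicates 2, 3 and 4, a mean of 9.30 ± 0.17 (SD, n = 3). In control cells it was 10.25, 10.14 and 10.02, a mean of 10.14 ± 0.12 (SD, n = 3). The highest rFSH level, that of replicate 3, lay below the lowest control level.

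The log2 ratios of this BTC probe were -1.06, -0.63 and -0.80, with a mean of -0.83 ± 0.21 (SD, n = 3) and a 95% interval from -1.14 to -0.53 (limma, adjusted p = 0.0384). It was lower with rFSH on 6 of 6 arrays, with log2 ratios from -1.07 to -0.46. The raw signal was well clear of the negative controls in both groups, at 2.76 to 4.26 times their threshold with rFSH and 4.38 to 8.56 times in control cells. Unlike AREG, BTC was far from the largest ratios of its direction, with 879 named genes lower. Its call lay close to the threshold. It was lost without background correction (log2 ratio -0.78, adjusted p = 0.0510), with the authors' deposited log2 ratios (mean -0.75, adjusted p = 0.0508), and when the 3 probes were averaged (log2 ratio -0.72, adjusted p = 0.0895). Leaving out each replicate in turn, the log2 ratio stayed between -0.93 and -0.72 and the adjusted p between 0.0716 and 0.143; without replicate 2 or 3, as given above, 0 probes of the whole array were called.

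The other BTC probes were dimmer and more variable. Probe EMBV3_40394 had log2 ratios of -1.21, -0.46 and -0.69, a mean of -0.79 ± 0.38 (SD, n = 3; limma, adjusted p = 0.0763), and was lower on 6 of 6 arrays. Probe EMBV3_07896 had -1.15, -0.10 and -0.34, a mean of -0.53 ± 0.55 (SD, n = 3; adjusted p = 0.262), and was lower on 5 of 6 arrays. Neither passed the test. For each of the 3 BTC probes, all replicate levels with rFSH lay below all control levels, and replicate 2 had the most negative ratio. The gap was narrow for the dimmer ones. The highest rFSH and lowest control levels were 8.09 and 8.11 for EMBV3_40394, and 7.62 and 7.68 for EMBV3_07896. Of all tested named genes, 28.0% had levels that did not overlap in either direction.

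AREG and BTC are neighbours in the cattle genome. In the order of protein-coding genes of RefSeq (ARS-UCD2.0), EPGN, EREG, AREG and BTC follow each other with 0 protein-coding genes between each pair. No probe named EREG or EPGN was found, so epiregulin and epigen, ligands of the same receptor, were not analysed here.

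**Figure D2:**
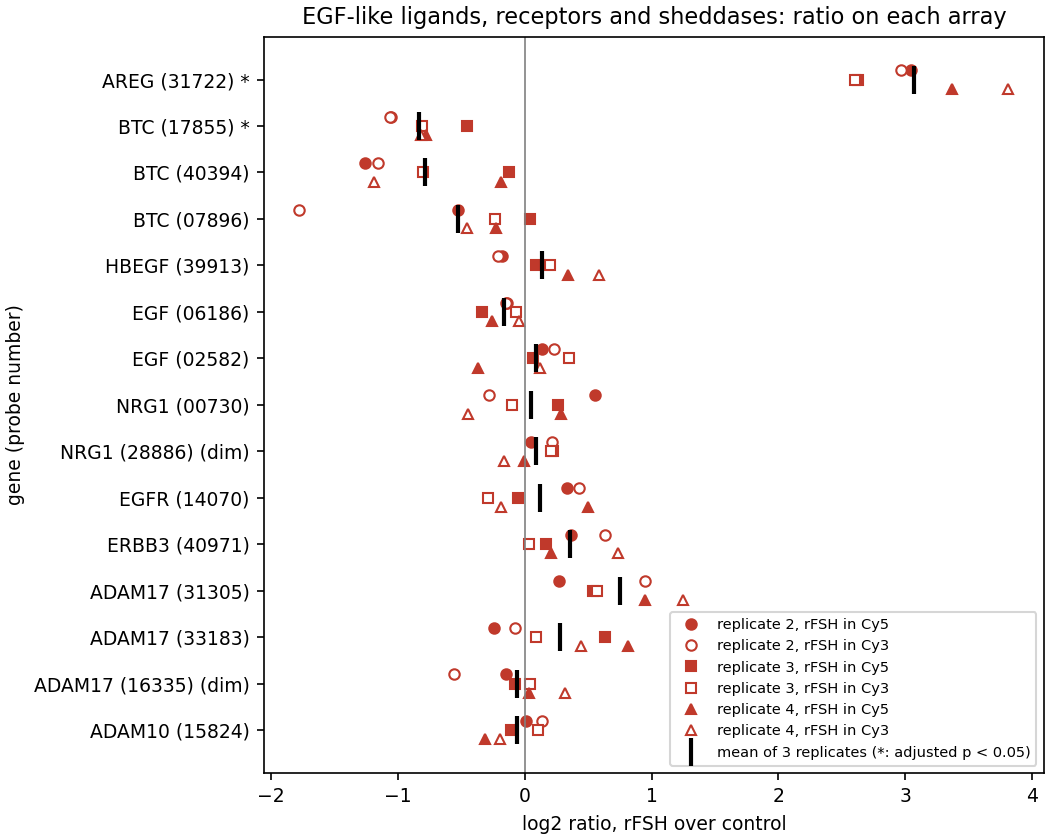
Log2 ratio of rFSH to control (horizontal axis) on each of the 6 arrays for all 15 probes, with filled and open symbols for rFSH in Cy5 and Cy3 and a bar for the mean of the 3 replicates. AREG lies between 2.60 and 3.81 on every array, all 3 BTC probes have means below 0, and the brighter NRG1 probe splits by dye.

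HBEGF, heparin-binding EGF-like growth factor, had no called difference. Its log2 intensity was 7.31, 7.42 and 7.66 with rFSH and 7.50, 7.27 and 7.20 in control cells, so the groups overlapped. The ratio was -0.19 in replicate 2, 0.14 in replicate 3 and 0.46 in replicate 4, a mean of 0.14 ± 0.33 (SD, n = 3) with a 95% interval from -0.27 to 0.54 (limma, adjusted p = 0.647). That interval lies below the ratio of AREG, but it describes a signal near the negative controls and does not bound the change of the transcript. The HBEGF signal was dim in both groups, at 1.02 to 1.56 times the negative control threshold over both channels, though above it on all 6 arrays.

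EGF, the ligand that names the family, also stayed near the negative controls. Its brighter probe, EMBV3_06186, had log2 intensities of 7.39, 7.16 and 7.09 with rFSH and 7.53, 7.36 and 7.24 in control cells. Within each replicate the control was higher, but the groups overlapped: replicate 2 had the highest and replicate 4 the lowest level in both. The log2 ratios were -0.14, -0.21 and -0.15, a mean of -0.16 ± 0.04 (SD, n = 3), lower on 6 of 6 arrays, with a 95% interval from -0.37 to 0.04 (limma, adjusted p = 0.286). The second EGF probe, EMBV3_02582, exceeded the negative controls on 3 of 6 arrays in each channel and had a mean of the opposite sign, 0.09 ± 0.19 (SD, n = 3; adjusted p = 0.674).

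NRG1, neuregulin, which binds ERBB3 rather than EGFR, was at the edge of detection. Probe EMBV3_00730 exceeded the negative controls on 5 rFSH and 4 control arrays, with log2 intensities of 7.26, 6.92 and 6.99 with rFSH and 7.12, 6.85 and 7.07 in control cells. Its mean ratio was 0.05 ± 0.11 (SD, n = 3; limma, adjusted p = 0.798). The groups overlapped, and the sign followed the dye instead. The ratio was 0.56, 0.26 and 0.29 on the arrays with rFSH in Cy5 and -0.28, -0.10 and -0.45 on those with rFSH in Cy3. A dye effect of 0.32 on the log2 scale was called for this probe alone among the 13 tested (limma, adjusted p = 0.0369), against 12.7% of all tested probes. The other NRG1 probe, EMBV3_28886, exceeded the negative controls on 0 of 6 arrays in each channel and was not tested.

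Neither receptor passed the test. EGFR, which binds AREG and BTC, had log2 intensities of 8.18, 7.72 and 8.07 with rFSH and 7.80, 7.89 and 7.91 in control cells. The groups overlapped, with replicate 3 below its control and the others above theirs. The ratios of 0.38, -0.17 and 0.16 gave a mean of 0.12 ± 0.28 (SD, n = 3) and a 95% interval from -0.24 to 0.48 (limma, adjusted p = 0.649). The median log2 ratio of 11 tested oocyte markers ran in the same order over the replicates, at 0.62, -0.51 and 0.13; their part in the EGFR ratio was not tested. No oocyte marker was called, and GDF9, an oocyte growth factor, was too dim to test. Single markers differed more between replicates 2, 3 and 4, with 1.46, -3.14 and 0.22 for ZP2 and 1.96, -2.11 and 0.32 for KPNA7. Others did not, such as BMP15 with 0.62, 0.22 and 0.13.

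ERBB3, a receptor with little kinase activity of its own that signals in pairs with other ERBB receptors, was higher with rFSH on 6 of 6 arrays without passing the adjusted threshold. Its log2 intensity was 8.18, 7.87 and 7.98 with rFSH and 7.68, 7.77 and 7.51 in control cells. The lowest rFSH level lay just above the highest control level, both in replicate 3. The ratios were 0.50, 0.10 and 0.47, a mean of 0.36 ± 0.22 (SD, n = 3) with a 95% interval from 0.04 to 0.67 (limma, unadjusted p = 0.0332, adjusted p = 0.156). As for EGFR and the oocyte marker median, the ratio was highest in replicate 2 and lowest in replicate 3, an order the brighter EGF probe shared. Replicates 2 and 4 differed little for ERBB3 and for that EGF probe. The brightest tested probes of the other member genes had other orders. The part of oocyte RNA in the ERBB3 ratio was not tested. Of the 9 genes, 4 had an unadjusted p under 0.05, while 30.9% of all named genes did. No probe named ERBB2, the usual partner of ERBB3, was found, and the ERBB4 probe was too dim to test.

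ADAM17, the sheddase of AREG in mice, narrowly missed the threshold. Its brightest probe, EMBV3_31305, had log2 intensities of 10.24, 10.16 and 10.84 with rFSH and 9.63, 9.61 and 9.74 in control cells. The groups did not overlap, and replicate 4 stood above the others with rFSH. The ratios were 0.61, 0.55 and 1.10, a mean of 0.75 ± 0.30 (SD, n = 3), which is 1.69-fold, with a 95% interval on the log2 scale from 0.37 to 1.13 (limma, adjusted p = 0.0594).

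This ADAM17 probe was higher with rFSH on 6 of 6 arrays, from 0.27 to 1.25 on the log2 scale, and its raw signal was at least 2.61 times the negative control threshold. It passed under 5 of 14 alternative settings with all replicates, where its adjusted p ranged from 0.00973 to 0.127 and its log2 ratio from 0.52 to 0.92. The other ADAM17 probes did not show the same ratio. Probe EMBV3_33183 had -0.16, 0.36 and 0.63, a mean of 0.28 ± 0.40 (SD, n = 3; limma, adjusted p = 0.430), and its groups overlapped. Probe EMBV3_16335 exceeded the negative controls on 0 of 6 arrays in each channel and was not tested.

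ADAM10, the sheddase of BTC and EGF in mice, had log2 intensities of 7.49, 7.39 and 7.28 with rFSH and 7.42, 7.39 and 7.53 in control cells. The groups overlapped, and the ratios of 0.07, -0.00 and -0.25 averaged -0.06 ± 0.17 (SD, n = 3), with a 95% interval from -0.33 to 0.21 (limma, adjusted p = 0.774). The difference between ADAM17 and ADAM10 was not tested.

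**Figure D3:**
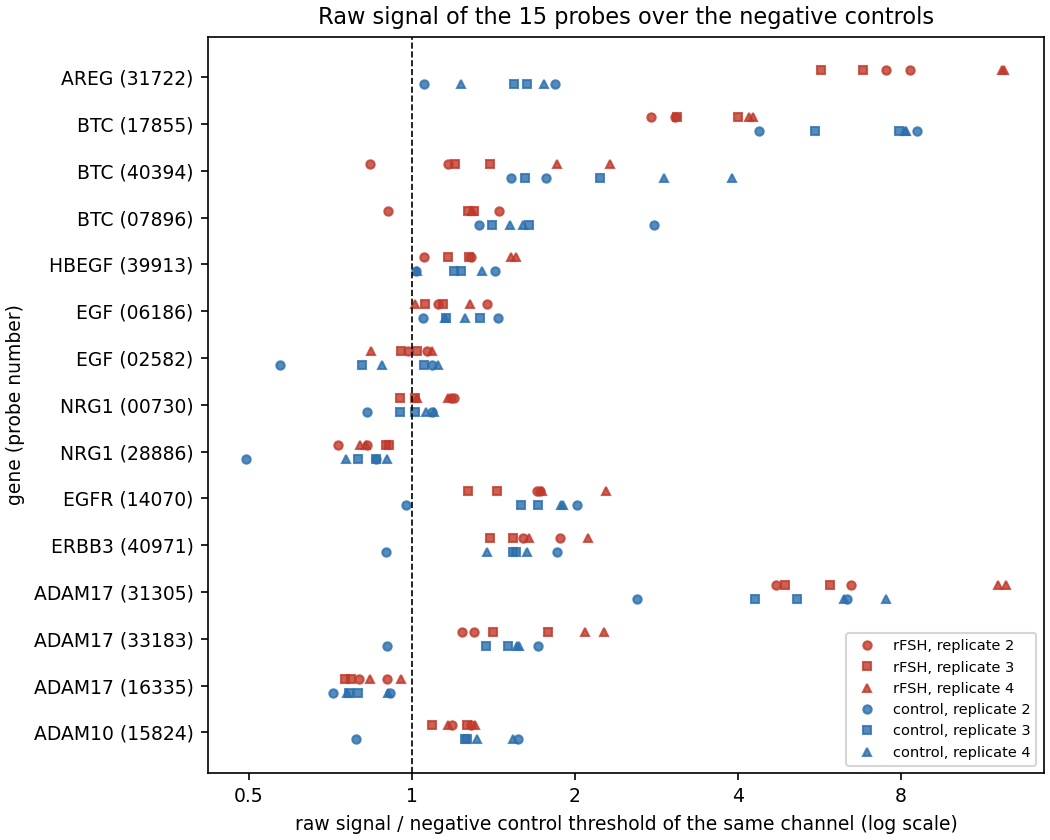
Raw signal of the 15 probes divided by the negative control threshold of the same channel and array (log axis, dashed line at 1), in red for rFSH and blue for control. Only the brightest BTC and ADAM17 probes and AREG with rFSH stay at or above 2.61 on every array, and all other values lie between 0.494 and 3.90.

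How firmly each gene can be read therefore differed. Of the 15 probes, 5 were above the negative controls on all 6 arrays in both channels: AREG, the brightest probes of BTC and ADAM17, HBEGF and the brighter EGF probe. The probes of EGFR, ERBB3 and ADAM10 and the second of ADAM17 were above on 5 of 6 control arrays, and for these 4 the array missed was that of replicate 2 with rFSH in Cy3. On that array 38.2% of all bovine probes exceeded the negative controls in the control channel, the lowest share of any channel, where the highest was 83.3%. Without that array, a setting chosen after the data were seen, AREG and BTC were still the members called.

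Genes around the members were read from lists of the pathway. The background for each list was 3.88% of named genes called higher and 4.85% called lower. Of the other EGF-family ligands only NRG3, a neuregulin, was bright enough to test, with a log2 ratio of -0.14 ± 0.13 (SD, n = 3; limma, adjusted p = 0.444). TGFA was too dim, and no probe named NRG2 or NRG4 was found. Of 10 tested receptors and adaptors, 0 were higher and 1 was lower, with a median of -0.23. That gene was GAB1, a docking protein that links EGFR to PI3K and SHP2, which fell by 1.66 on the log2 scale, ± 0.13 (SD, n = 3; adjusted p = 0.0138). A second GAB1 probe also fell, with -1.02 (adjusted p = 0.0452).

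Among 10 tested shedding proteases and their regulators, 0 were called in limma, with a median log2 ratio of -0.09. An unadjusted p under 0.05 was found for 2 of them, against 30.9% of all named genes. The largest ratio was that of ADAM8, a membrane protease, at 0.77 ± 0.30 (SD, n = 3; adjusted p = 0.0572). Its second probe had a ratio of 0.19 (adjusted p = 0.242). Of 8 tested genes of the RAS, RAF and ERK cascade, ARAF, a RAF kinase, rose with 0.77 ± 0.08 (SD, n = 3; adjusted p = 0.0293), 0 fell, and the median was 0.25.

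Of 13 ERK feedback genes and early targets, 1 rose and 1 fell, with a median log2 ratio of 0.01. DUSP5, a nuclear phosphatase that inactivates ERK, rose with 0.85 ± 0.10 (SD, n = 3; limma, adjusted p = 0.0281). SPRY1, an inhibitor of receptor tyrosine kinase signalling, fell by 1.02 on the log2 scale, ± 0.28 (SD, n = 3; adjusted p = 0.0368), while its second probe had a ratio of -0.05 (adjusted p = 0.736).

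Of 7 genes of cumulus expansion, which EGFR signalling induces in mice, 3 rose and 0 fell, with a median log2 ratio of 0.79. They were TNFAIP6, which links hyaluronan to proteins, at 3.77 ± 0.18 (SD, n = 3; limma, adjusted p = 0.0118), the hyaluronan synthase HAS2 at 2.61 ± 0.43 (SD, n = 3; adjusted p = 0.0200) and the protease ADAMTS1 at 2.22 ± 0.62 (SD, n = 3; adjusted p = 0.0313). The ADAMTS1 value of replicate 3 rested on 1 dye orientation. The others were not called: CD44 at 0.79, PTGS2 at 0.57, PTX3 at -0.64 and VCAN at -0.84 (limma, adjusted p from 0.0960 to 0.371). Over all named genes, 3.88% were called higher and 4.85% lower. HAS2 had its highest ratio in replicate 4 and its lowest in replicate 3, as did AREG, with 2.57, 2.20 and 3.06 in replicates 2, 3 and 4. ADAMTS1 had the same order with 1.98, 1.76 and 2.93, whereas TNFAIP6 had the reverse with 3.77, 3.95 and 3.60. Whether these genes vary together with AREG was not tested.

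**Figure D4:**
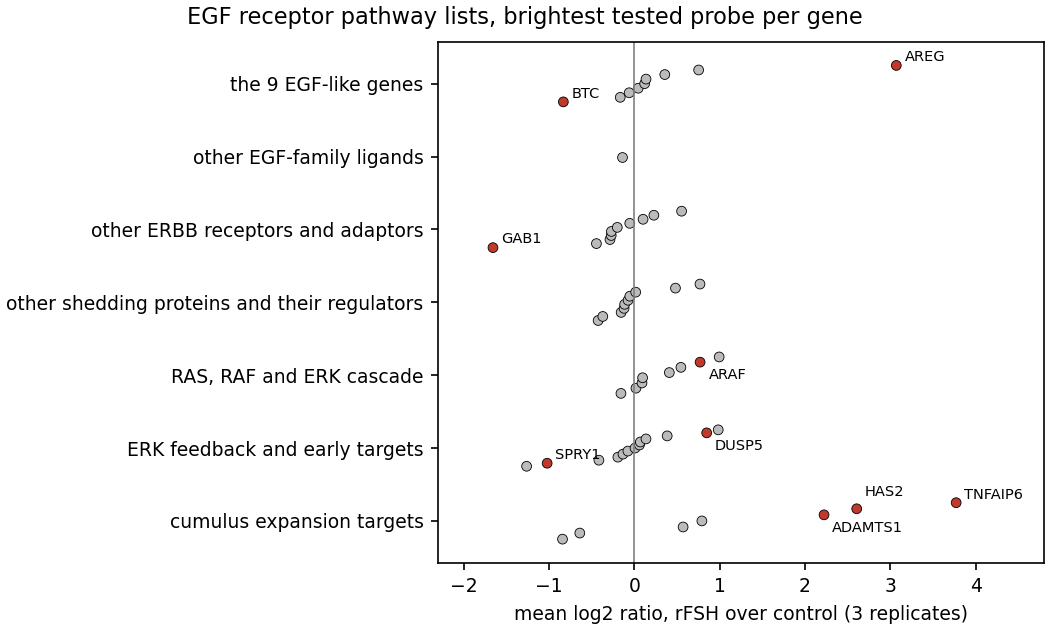
Mean log2 ratio of rFSH to control over 3 replicates (horizontal axis) for the 9 genes and for the tested genes of each pathway list, 1 point per gene, with red points for an adjusted p under 0.05. AREG at 3.07 lies among the called expansion genes TNFAIP6 (3.77), HAS2 (2.61) and ADAMTS1 (2.22), and the other EGF-like genes lie between -0.83 and 0.75.

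The genes most like AREG over the 6 arrays were MYO7A, an unconventional myosin, GZMK, a serine protease, and SGMS2, a sphingomyelin synthase. Their root mean square differences from AREG were 0.33, 0.36 and 0.36 on the log2 scale, among 13055 named genes with a value on every array. The genes nearest to BTC were the zinc transporter SLC39A10, LOC784294 and TEX30, at 0.14, 0.14 and 0.15. These are distances between ratios of the same arrays and carry no test.

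Markers were read for the labelled cell type and for cells that could accompany it. Of 11 cumulus and granulosa markers 10 were tested, and their summed linear intensity ranged from 125932 to 135619 with rFSH and from 104607 to 135018 in control cells. FSHR, the FSH receptor, was the marker called, and it fell by 0.83 on the log2 scale (limma, adjusted p = 0.0479); AMHR2 was too dim to test. Of 9 theca and stroma markers 2 were called lower, ACTA2 with -1.29 (adjusted p = 0.0470) and MYH11, for which no size is given because it exceeded the negative controls on 0 of 6 rFSH and 4 of 6 control arrays. The other 7 had mean log2 ratios between -0.06 and 0.09, and the median of all 9 was -0.03. Single replicates differed more, with 0.14, -0.97 and 0.90 for LUM and 0.65, -0.59 and -0.15 for COL1A1. LUM and INSL3 (0.11, 0.01 and 0.14) were ordered over the replicates as AREG, and the other theca and stroma markers were not. The summed intensity of the list was 8753 to 18106 with rFSH against 17927 to 28981 in control cells. Of 9 blood and endothelial markers 8 were tested and 0 called, 2 with an unadjusted p under 0.05, and the summed intensity was 1892 to 5175 against 1422 to 3398. For all these marker counts, 30.9% of all named genes had an unadjusted p under 0.05, 3.88% were called higher and 4.85% lower. The macrophage marker CD68 had log2 ratios of 1.27, 0.33 and 2.30 (adjusted p = 0.141), ordered over the replicates as those of AREG. KDR, an endothelial marker, had the same order with 1.09, -0.33 and 1.49 (adjusted p = 0.333), as did HBB with 0.02, -0.02 and 0.12. CD14, PTPRC, VWF, CDH5 and HBA had other orders. VWF had the smallest adjusted p of the list, 0.0741, with a mean of 0.59. CD14 had -0.08, -0.03 and 0.02, but exceeded the negative controls on only 2 rFSH and 3 control arrays. PTPRC had 0.09, 0.09 and 0.08, and the endothelial marker PECAM1 was too dim to test. Of 12 oocyte markers 11 were tested, with summed intensities of 1528 to 4956 and 1465 to 5136. The part of these cells in the ratios of AREG and BTC was not tested.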

How the data were processed

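RNA of both groups was hybridised together on 6 two-colour arrays; it had been amplified by a T7-based linear method in a pair of rounds and labelled chemically, per the labels' protocols. The scanner files deposited by the authors hold linear, unnormalized intensity of spots and their background, Cy3 read at 532 nm and Cy5 at 635 nm, and a mark for ignored spots, per the file headers. The authors also deposited a pair of identical tables of normalized log2 ratios, which held log2 Cy5 over Cy3 (r from 0.976 to 0.992 with the scanner values) with column medians from -0.0202 to 0.00122; the sources used here do not say how they were normalized.

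Mean intensities were corrected with normexp (offset 50) and normalized by loess (span 0.3, control spots at weight 0) in limma 3.58.1 under R 4.3.3, leaving out 18 to 63 ignored bovine spots per array. Ratios were turned to rFSH over control by the dye labels and averaged per replicate. Each ratio compares samples of 1 replicate number, which makes the test a paired one. Probes entered the test where the raw signal lay more than 2 SD above the mean of 153 negative controls on 3 or more arrays of the rFSH or control channel, with a value in all 3 replicates. Levels are channel values after loess and Aquantile scaling, averaged over both dyes. The dye effect was tested on the difference between the arrays of a replicate. As a check of the code only, the limma fit was run on simulated, independent replicate ratios with the spreads of the tested probes. Dye or array effects shared between probes were not simulated. The 3 replicates limit the precision. Each p-value and interval rests on the spread between them, which limma moderates toward that of all tested probes. The weight of this prior was 2.26 degrees of freedom. An interval can therefore be narrower or wider than the 3 values alone would give.

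Of 43794 bovine probes, 21790 had 1 symbol in the platform annotation; 20025 were current in RefSeq, 1524 were updated and 241 matched neither. RefSeq served for the order of genes, and no coordinates are printed. The brightest tested probe, by mean intensity, stood for a gene. The members and gene lists were chosen with earlier results of these data known. Named genes were all members, up to 3 called genes of each pathway list by size of ratio or its largest ratio where none was called, and the 3 genes nearest to each called member. ACTA2, MYH11, LUM, COL1A1, INSL3, FSHR and the blood and endothelial markers were named after their values were seen, as were the untested markers. So were the oocyte markers ZP2, KPNA7 and BMP15 and the expansion genes that were not called. Alternatives covered background correction, pixel statistic, normalization, filter, dye orientation, pairing, technical replicates, left-out replicates and the choice of probe.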

Additional observations from a re-analysis of the deposited data

Results flagged for a closer look

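For the BTC probe EMBV3_07896, the replicate 2 array with rFSH in Cy3 had a log2 ratio of -1.78, while the other 5 arrays lay between -0.52 and 0.04. The gap to the nearest array exceeded Dixon's 95% critical value for 6 values. Among the 15 probes searched this was the 1 with an array standing apart, and chance gives 0.75 such probes. On this array the control channel had the lowest share of probes above the negative controls, 38.2%; its part in the value was not tested.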

How the results depend on the processing

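AREG stayed called under all 14 alternatives with all replicates (log2 ratio 2.70 to 3.48), BTC under 11. ADAM17 joined AREG, giving 2 member genes higher, with normexp offset 0, median pixels, a filter on every array, rFSH in Cy3 only, and the random replicate block. No member gene was lower (0) without background correction, with the authors' log2 ratios, or with probes averaged. Leaving out 1 replicate gave 0 to 1 member genes higher and 0 lower. The causes were not tested.

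Over all probes (1035 higher and 1173 lower), counts were 570 and 482 without background correction, 1566 and 1833 with rFSH in Cy5 only, and 1576 higher with rFSH in Cy3 only. Lower probes numbered 715 with plain subtraction, 1863 with offset 0 and 1848 with median centring, where 29.6% of called probes were higher, against 46.9%; that share was 54.2% without background correction. Unpaired values with no replicate block gave 468 and 558, and a dye term with a random replicate block over 6 arrays 2664 and 3364. Leaving out a replicate gave 0 to 510 higher and 0 to 675 lower; without replicate 2 or 3, limma called 0, with 6874 and 7399 probes at an unadjusted p under 0.05. Without the replicate 2 array with rFSH in Cy3, counts were 1186 and 1638.

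Signs turned only for ratios that were not called. With rFSH in Cy3 only, NRG1 EMBV3_00730 gave -0.28, EGFR -0.017 and ADAM10 0.016; with rFSH in Cy5 only, EGF EMBV3_02582 gave -0.055. Leaving out 1 replicate, EGFR ranged from -0.0071 to 0.27, HBEGF from -0.024 to 0.30 and ADAM10 from -0.13 to 0.037. Signals near the negative controls limit HBEGF, EGF, NRG1 and ADAM10, as well as EGFR, ERBB3 and the control level of AREG.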
